A study of Ulmus minor with 54 samples.

Results

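The transcripts described here are 65 sequences of the field elm, Ulmus minor, that were lower in leaves 1 h after simulated insect eggs than in untreated leaves of the same hour. They are 65 of the 237477 assembled sequences on which reads were counted. Levels are counts-per-million (CPM) on 1 common scale over all libraries but 1. A sequence was eligible if its median over the 18 libraries of untreated leaves lay between 2 and 300 CPM, which 29546 sequences did. It was chosen if the log2 ratio of the group medians at 1 h, with 0.5 CPM added to each, was at most -0.8 and every library with simulated eggs lay below every untreated library. Of the 29546, 255 passed the limit on the ratio and 65 passed both conditions. That is 0.22% of the eligible sequences, while the same rule turned round, for higher levels after simulated eggs, takes 416 or 1.41%. The rule allowed up to 200 members, so all 65 were kept. Because the members were chosen by their measured levels in P and C leaves of 1 h, their difference there is given as a description only.

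The leaves came from greenhouse trees about 15 to 19 weeks old, all of 1 wild-type clone propagated in vitro, so the results hold for that genotype. Simulated eggs stand for a scratch of 1.5 cm by 1 mm through the leaf epidermis, covered with oviduct secretion of gravid elm leaf beetles, a specialist herbivore of elms. Control leaves had no scratch, and the effects of wounding and of secretion cannot be told apart. In the priming set, leaves with simulated eggs (P) and untreated leaves (C) were harvested 1, 6 and 24 h after treatment. In the triggering set, 5 newly hatched larvae were put on each fed leaf on day 7, and leaves were harvested 1, 6 and 24 h later. Its groups were simulated eggs followed by larvae (PT), larvae alone (CT), simulated eggs alone (PC) and no treatment (CC). Each of the 18 combinations of treatment and hour had 3 libraries, made from polyadenylated RNA of about 100 mg of tissue at the treated site. Whether these were separate trees is not in the labels, and p-values here gauge only how libraries vary, which may be technical.

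Plants that are wounded or attacked by insects are known to switch on jasmonate signalling and defence genes quickly, while transcripts of photosynthesis and growth often decline. Eggs laid on a leaf can warn the plant ahead of the larvae, a form of defence priming, and elms treated in this way are used as a model of it. Many leaf transcripts also cycle with the time of day under the circadian clock. The identifiers of the 65 sequences carry no gene names here, so no role in any of these processes is assigned to them. They are called transcripts, with the caution that 1 gene can be split over several contigs or scaffolds.

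Replicate 1 of CT at 24 h stood apart from all other libraries and was left out of levels and tests. It held 14667334 reads on 62026 sequences, with 80.3% of them on its 10 most abundant sequences. The other 53 libraries held 28916592 to 93878963 reads on 176736 to 221423 sequences, with 5.68% to 58.5% of them on the top 10. No pair of libraries of a group agreed within sampling noise, the lowest chi-square per degree of freedom being 9.48 over 54 pairs. Among the 65 transcripts the lowest read count of any member was 8 in the P libraries of 1 h and 54 in the C libraries of 1 h. CPM does not account for length, so levels are compared between libraries and not between transcripts. In whole-leaf RNA, fewer cells of a type and less RNA per cell cannot be told apart.

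At 1 h after simulated eggs the members stood well below their level in untreated leaves, as the rule asked. The 65 group medians had a median of 3.61 CPM in P leaves and of 7.93 CPM in C leaves. Summed over the 65, P libraries held 897 ± 24.4 CPM and C libraries 1669 ± 51.8 CPM (SD, n = 3 each). The log2 ratio used by the rule ran from -1.68 to -0.80 with a median of -0.92, against a median of -0.03 over all eligible transcripts. The members closest to the limit were C421817 and scaffold3020, at -0.802 and -0.80, and the first transcripts outside it were C505477 and scaffold3583, at -0.799 and -0.796.

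The lowest ratios belonged to C315847 and C585991. C315847 stood at 0.858, 1.03 and 1.96 CPM in P and at 5.52, 4.41 and 1.99 CPM in C. Its P libraries were all lower, but the highest of them came close to the lowest C library. C585991 stood at 3.57, 3.84 and 6.69 CPM in P and at 14.2, 13 and 7.29 CPM in C, again with the third library of each group near the other.

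Tests were made over all transcripts with edgeR's quasi-likelihood test, and a transcript was called where its p, adjusted by Benjamini-Hochberg, did not exceed 0.05. For P against C at 1 h, 1 of the 65 was called lower and 0 higher, where 0.00158% of the 126737 tested transcripts were called lower. Nothing is read from that count, since the same libraries chose the members. The called transcript was scaffold197, named after its values were seen. It stood at 32.4, 28.4 and 30.2 CPM in P and at 57.5, 57.5 and 58.3 CPM in C, so that both groups were tight and far apart.

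**Figure D1:**
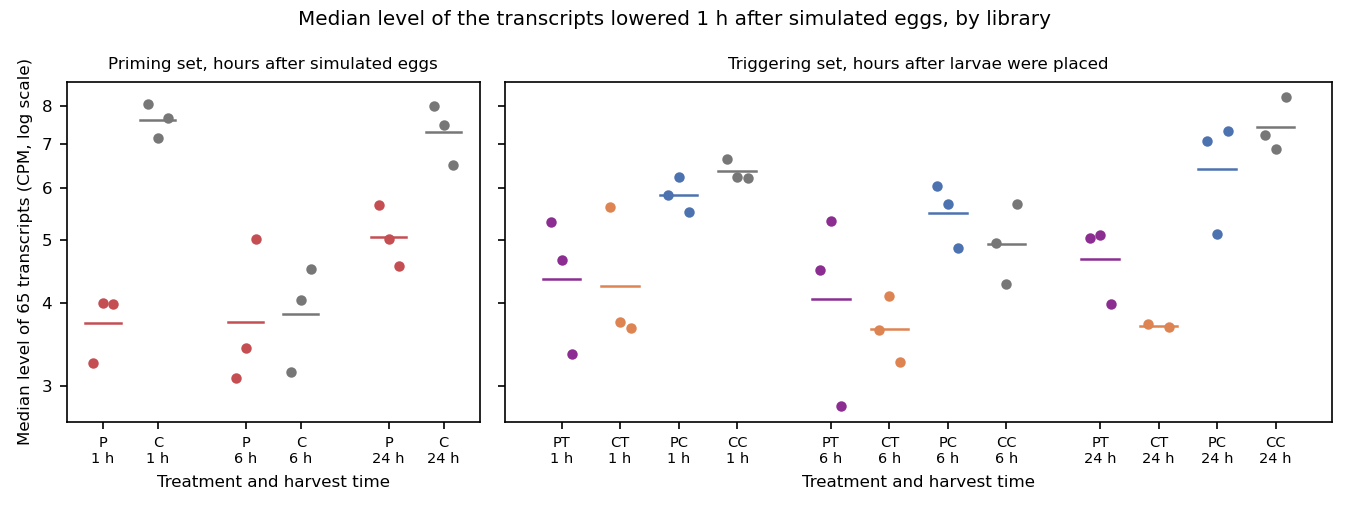
Median level of the 65 transcripts in each library (CPM, log scale), by treatment and harvest hour; points are libraries and bars are geometric means of a group. P at 1 h lies near the level of both groups at 6 h, and fed leaves (PT, CT) lie below unfed leaves (PC, CC) at most hours.

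Over the first day after simulated eggs the median difference of the members was near 0 at 6 h and lay below 0 again at 24 h. At 6 h the member medians had a median of 3.28 CPM in P leaves and of 3.94 CPM in C leaves, and 29 of the 65 had a log2 fold change below 0, with a median of 0.04. Library medians ran from 3.09 to 5.01 CPM in P and from 3.14 to 4.51 CPM in C, so these groups overlapped. At 24 h the medians were 5.11 CPM in P and 6.58 CPM in C. Library medians were 4.57 to 5.65 CPM in P and 6.5 to 7.99 CPM in C, without overlap. There 58 of the 65 had a log2 fold change below 0, with a median of -0.37, whereas 53.5% of the eligible transcripts lay below 0, with a median of -0.02. In 17 members every P library of 24 h lay below every C library, or 26.2% against 3.15% of the eligible transcripts. It was the other way round in 0 members, against 2.51% of the eligible transcripts.

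None of these later differences reached a call for a single member. At 6 h, 0 of the 65 were called, where 0.0292% of all tested transcripts were called higher and 0% lower. At an unadjusted edgeR p of 0.05, 3 members were higher and 4 lower, against 4410 and 3310 of the 126737 tested transcripts. At 24 h, 0 of the 65 were called by edgeR's quasi-likelihood test, where 0.0229% of all tested transcripts were called higher and 0% lower. At an unadjusted p of 0.05, 0 members were higher and 16 lower, against 4568 and 2335 of the 126737 tested transcripts. DESeq2 called 1 member higher at 6 h, where it called 466 of the 126737 tested transcripts higher and 32 lower. It called 0 members at 24 h, where 224 transcripts were called higher and 10 lower. Without replicate 2 of P at 24 h, edgeR called 5 members lower, where 93 of 134263 tested transcripts were called lower and 645 higher.

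Untreated leaves of the priming set stood high at 1 h compared with their later hours. The C libraries of 1 h exceeded those of 6 h in 60 of the 65 group medians and those of 24 h in 48. They also exceeded CC leaves, harvested a week later, in 47 members at 1 h, 52 at 6 h and 37 at 24 h. Conversely, P at 1 h lay below C at 24 h in 60 members and below CC in 54 at 1 h and 56 at 24 h. Set against the hour with low levels, P at 1 h lay below C at 6 h in only 34 members and below CC at 6 h in 38. These counts use the libraries that chose the members and are a description.

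The dependence on harvest hour was therefore examined in libraries the rule had not compared. In CC leaves, 16 of the 65 fell at 6 h relative to 1 h and 3 rose, where 2.73% of the 156137 transcripts tested in the triggering set were called lower and 1.5% higher. That is 24.6% of the members called lower, against 7.72% of the eligible transcripts, whose choice used the levels in C and CC. The median log2 fold change of the members was -0.45, against -0.07 over the eligible transcripts, and 44 of the 65 lay below 0. Without replicate 2 of CC at 1 h or replicate 4 of CC at 6 h, 12 members were called in place of 19. At 24 h, 0 members were called against 1 h by edgeR, where 0% of all transcripts were called in either direction. At an unadjusted p of 0.05, 11 members were higher and 6 lower, against 7182 and 6476 of the 156137 tested transcripts. DESeq2 called 5 members higher in that comparison, where it called 482 of all tested transcripts higher and 245 lower. The members had a median log2 fold change of 0.15 there, with 41 of the 65 above 0.

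Among untreated leaves of the priming set, 25 of the 65 rose at 24 h relative to 6 h and 2 fell, where 6.03% of the 126737 tested transcripts were called higher and 6.72% lower. The share of members called higher was 38.5%, against 10.7% of the eligible transcripts. The median log2 fold change was 0.62, and 55 of the 65 lay above 0, while the eligible transcripts had a median of -0.02. Of the 16 members that fell at 6 h in CC, 15 were among the 25 that rose at 24 h in C. These are 93.8% of the CC list and 60% of the C list, and the comparisons share no library. The same overlap was not counted over the eligible transcripts, so it is not read as particular to the members.

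C316839 and C248605 were named by the rule for the smallest p with groups apart. C316839 stood at 15.4, 4.92 and 6.34 CPM in CC at 6 h, against 90.7, 91.4 and 89.0 CPM in CC at 1 h. All libraries of 6 h were thus far under all libraries of 1 h, with a log2 fold change of -3.33 ± 0.45 (SE, adjusted p = 7.75e-05, edgeR). C248605 stood at 0.559, 0.331 and 0.152 CPM in CC at 6 h, against 3.61, 4.31 and 5.96 CPM in CC at 1 h, with a log2 fold change of -3.71 ± 0.52 (SE, adjusted p = 0.000114, edgeR). The largest fall by fold was that of C585991, at 0.643, 0.236 and 0.0305 CPM in CC at 6 h, against 16.2, 22.9 and 9.41 CPM in CC at 1 h, with a log2 fold change of -5.73 ± 1.02 (SE, adjusted p = 0.00112, edgeR). In untreated leaves of the priming set these members were likewise low at 6 h. C248605 stood at 7.99, 4.09 and 5.98 CPM in C at 24 h and at 0.114, 0.441 and 0.263 CPM in C at 6 h. Its P libraries of 1 h, at 0.992, 1.69 and 2.62 CPM, lay between the C levels of 6 h and those of 1 h, which were 6.75, 6.21 and 3.54 CPM.

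Opposite in direction were scaffold487, C421817 and scaffold19190, the 3 members that rose at 6 h in CC, of which scaffold19190 was named after its values were seen. Scaffold487 stood at 21.8, 19.6 and 11.8 CPM in CC at 6 h, against 3.10, 1.01 and 2.96 CPM in CC at 1 h, with a log2 fold change of 2.92 ± 0.59 (SE, adjusted p = 0.00324, edgeR). For C421817 the values were 32.2, 39.9 and 36.4 CPM at 6 h, against 20.3, 14.4 and 18.2 CPM at 1 h. Its log2 fold change was 1.05 ± 0.28 (SE, adjusted p = 0.0284, edgeR), a call lost in 7 of 12 other settings. The call of scaffold19190, at 1.09 ± 0.32 (SE, adjusted p = 0.0450, edgeR), was lost in 8 of 12. Their levels in untreated leaves of the priming set are given as a description, since the members were chosen to be high in C at 1 h. C421817 stood at 14.9, 19.8 and 20.0 CPM in C at 6 h and at 27.7, 21.7 and 27.4 CPM in C at 1 h, so its libraries of 6 h were all lower. Scaffold19190 stood at 12.1, 15.5 and 21.8 CPM in C at 6 h and at 54.3, 33 and 33.5 CPM in C at 1 h, also all lower. Only the libraries of scaffold487 overlapped, at 2.73, 5.44 and 5.82 CPM in C at 6 h and at 2.58, 3.12 and 5.56 CPM in C at 1 h.

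The 2 members that fell at 24 h relative to 6 h in untreated leaves of the priming set were named after their values were seen. Scaffold25426 stood at 5.44, 3.17 and 2.26 CPM in C at 24 h, against 9.39, 12.6 and 14.4 CPM in C at 6 h, with a log2 fold change of -1.76 ± 0.36 (SE, adjusted p = 0.00457, edgeR). C491837 stood at 2.78, 1.78 and 1.93 CPM at 24 h, against 3.60, 4.45 and 3.21 CPM at 6 h, a smaller difference of -0.82 ± 0.25 (SE, adjusted p = 0.0378, edgeR) that was lost in 7 of 11 other settings.

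**Figure D2:**
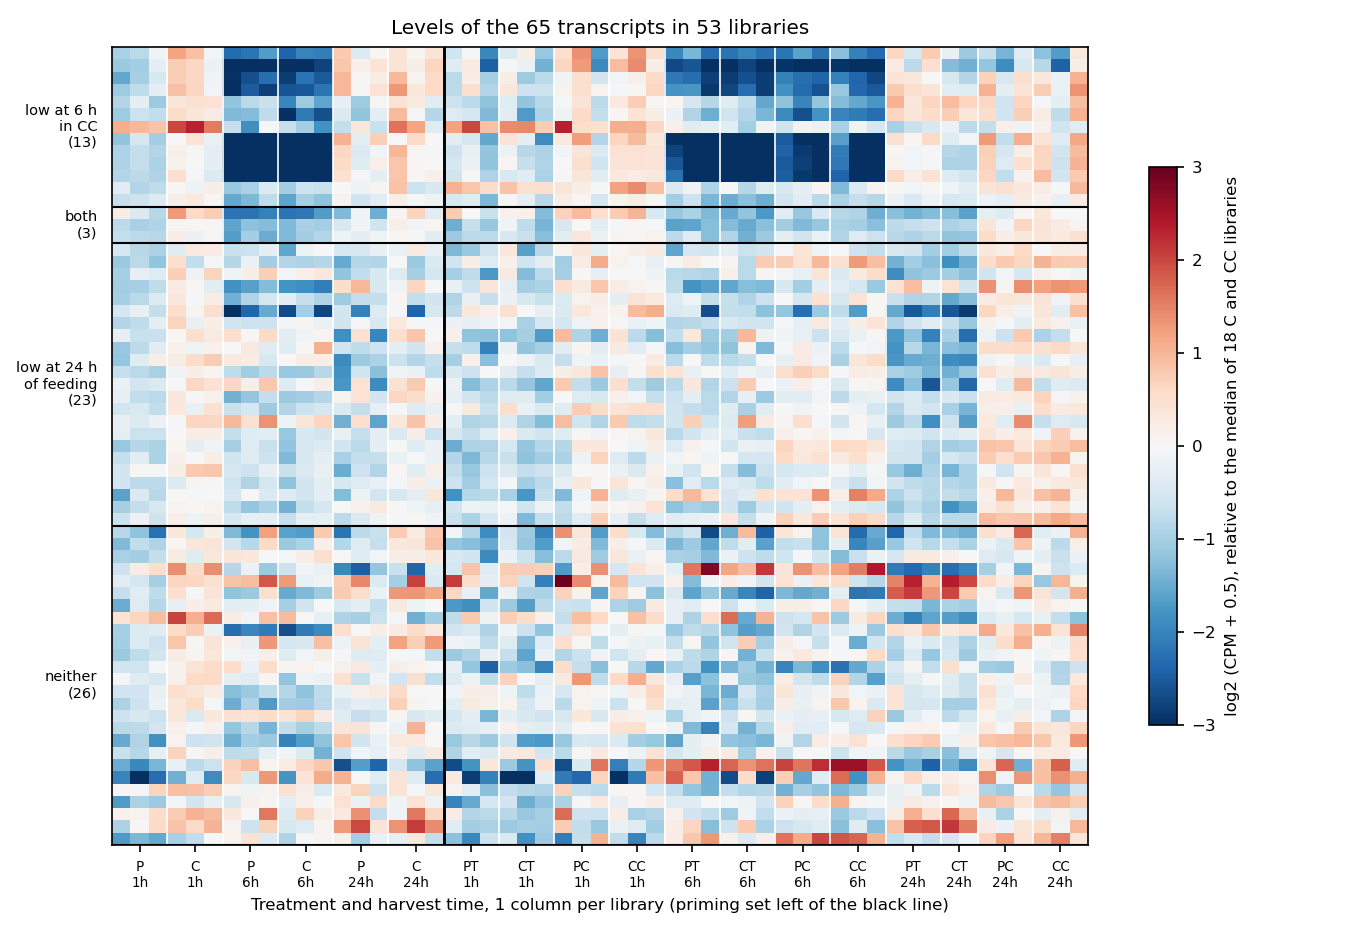
Levels of the 65 transcripts (rows) in 53 libraries (columns), as log2 of CPM plus 0.5 relative to the median of the 18 C and CC libraries, red above and blue below it. Rows are grouped into 13 members called lower at 6 h in CC, 3 called lower both there and at 24 h of feeding, 23 called lower at 24 h of feeding and 26 called in neither; dark blue blocks at 6 h mark the first group in both sets.

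Many of the 65 transcripts were also lower in leaves fed on by larvae a week later. The fed libraries and those of PC entered the choice of members only through the common scaling. CC libraries also entered it through the range of eligible levels. By median log2 fold change the shift was largest at 24 h and smallest at 6 h, while the number of members below 0 was highest at 1 h. At 1 h the median of the member medians was 3.94 CPM in CT and 6.14 CPM in CC. In leaves with earlier simulated eggs it was 4.39 CPM in PT and 5.62 CPM in PC. At 6 h it was 3.64 CPM in CT and 5.36 CPM in CC, and 4.24 CPM in PT and 5.4 CPM in PC. At 24 h it was 4.12 CPM in CT and 7.48 CPM in CC, and 4.61 CPM in PT and 6.70 CPM in PC. Fed and unfed libraries did not overlap in their member medians at 1 h or at 24 h in either pair of groups. At 6 h CT and CC did not overlap, while PT and PC did.

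For larvae alone at 1 h, 0 of the 65 were called by edgeR, where 0.00961% of all tested transcripts were called higher and 0% lower. Yet 62 of the 65 had a log2 fold change below 0, with a median of -0.69, while 62.6% of the eligible transcripts lay below 0, with a median of -0.08. In 23 members, or 35.4%, every CT library lay below every CC library, against 9.38% of the eligible transcripts. The reverse held in 1 member, or 1.54%, against 5.65%. At an unadjusted p of 0.05 by edgeR, 0 members were higher and 19 lower, against 8335 and 4593 of the 156137 tested transcripts. DESeq2 called 2 members lower, where it called 78 of all tested transcripts lower and 718 higher. Without replicate 1 of CT at 1 h, edgeR called 4 members lower, where 55 of 154688 tested transcripts were called lower and 508 higher. The 10 most abundant sequences took 12.7% to 41.6% of the reads in CT, against 9.97% to 19.2% in CC, and the part of this in the members' levels was not tested. Summed over the 65, CT libraries held 902 ± 279 CPM and CC libraries 1555 ± 179 CPM (SD, n = 3 each).

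For larvae after simulated eggs at 1 h, 1 of the 65 was called lower and 0 higher, where 0.0403% of all tested transcripts were called lower and 0.0576% higher. The log2 fold change lay below 0 in 61 of the 65, with a median of -0.63, against -0.09 over the eligible transcripts. In 9 members, or 13.8%, every PT library lay below every PC library, a share near the 11.5% of the eligible transcripts. The reverse held in 1 member, or 1.54%, against 3.37%. The called transcript was scaffold10880, with 28, 41.4 and 42.3 CPM in PT and 43.8, 99.5 and 99.3 CPM in PC. The lowest PC library lay barely above the highest PT library, and the log2 fold change was -1.10 ± 0.23 (SE, adjusted p = 0.0451, edgeR). Same-numbered PT and PC libraries deviated together at this hour, and a fit that took the number as a block called 0 members. Leaving out replicate 1 of PC gave 6 calls, all lower, where 320 of 155854 tested transcripts were called lower and 1030 higher. Leaving out replicate 2 or 3 of PC or replicate 1 or 3 of PT gave 0.

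The 2 feeding comparisons at 1 h used different libraries and had much the same median. Their mean was therefore tested in 1 contrast, a test added after the data were seen. In it 9 of the 65 fell and 0 rose at 1 h, where 0.722% of all tested transcripts were called lower and 1.49% higher. The share of members called lower was 13.8%, against 2.34% of the eligible transcripts. The count was sensitive to single libraries. It was 21 without replicate 1 of CT, whose members stood highest of the fed leaves of that hour, and 5 without replicate 2 of PC. It was 4 with replicate 1 of CT at 24 h put back into the fit, and 0 with only the groups of 1 h fitted. Over all tested transcripts, 1806, 259, 289 and 4 were called lower in these settings, in that order, against 1128 in the main fit.

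**Figure D3:**
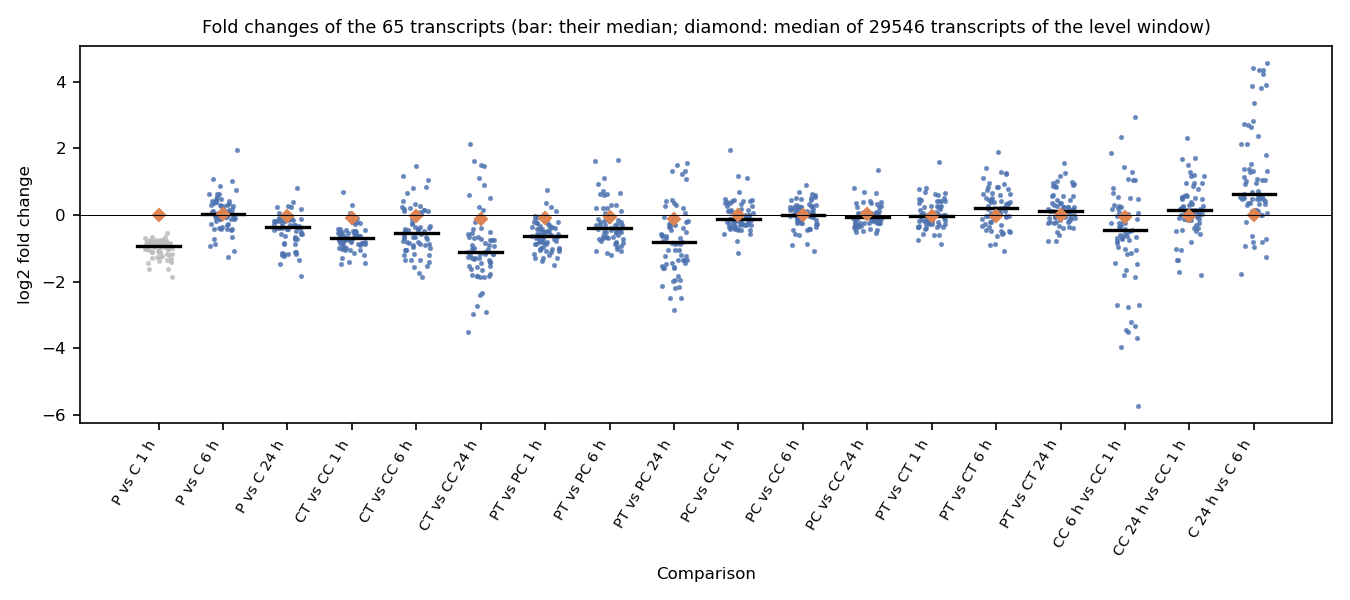
Log2 fold change of each of the 65 transcripts (points) in 18 comparisons, with their median (bar) and the median of the 29546 eligible transcripts (diamond); grey points are the comparison that chose the members. The members' median lies below the diamond in all 6 comparisons of fed with unfed leaves, and near it for PC against CC at all 3 hours.

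At 6 h of feeding most members were lower in fed leaves, though fewer than at 1 h. For larvae alone 2 of the 65 fell and 0 rose, where 0.108% of all tested transcripts were called lower and 1.14% higher. The median log2 fold change was -0.54, with 46 of the 65 below 0, against -0.03 and 53.6% for the eligible transcripts. In 20 members, or 30.8%, every CT library lay below every CC library, against 10.6% of the eligible transcripts. The reverse held in 1 member, or 1.54%, against 12.6%. Scaffold19190 stood at 22.2, 21 and 19.5 CPM in CT, against 58.5, 69.1 and 51.4 CPM in CC, with a log2 fold change of -1.55 ± 0.32 (SE, adjusted p = 0.00828, edgeR). Scaffold10880 stood at 54.3, 69.5 and 67.2 CPM in CT, against 121, 116 and 102 CPM in CC, at -0.86 ± 0.22 (SE, adjusted p = 0.0492, edgeR), a call lost in 9 of 12 other settings. Without replicate 3 of CC the count of calls was 0, and it was 1 without replicate 1 of CC or any 1 of the 3 CT libraries.

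For larvae after simulated eggs at 6 h, 2 of the 65 fell and 0 rose, where 0.405% of all tested transcripts were called lower and 1.58% higher. The median log2 fold change was -0.41, with 49 of the 65 below 0, against -0.07 and 57.8% for the eligible transcripts. Scaffold13583 stood at 1.6, 1.67 and 1.84 CPM in PT, against 3.24, 2.73 and 4.12 CPM in PC, with a log2 fold change of -0.96 ± 0.25 (SE, adjusted p = 0.0404, edgeR). Scaffold19325 stood at 0.783, 0.991 and 0.906 CPM in PT, against 1.44, 1.92 and 2.65 CPM in PC, at -1.13 ± 0.28 (SE, adjusted p = 0.0314, edgeR). Both groups were apart in each, but the count of calls was 0 without replicate 2 or 3 of PC or replicate 2 of PT. Without replicate 1 of PC or replicate 1 of PT, 1 member was called lower. Without replicate 3 of PT, 0 members were called lower and 1 higher. With replicate 1 of CT at 24 h in the fit, the count was 0. Every PT library lay below every PC library in 18 members, or 27.7%, against 20.2% of the eligible transcripts. The reverse held in 2 members, or 3.08%, against 11.1%. Library makeup differed between these groups, the top 10 sequences taking 27% to 58.5% of the reads in PT, against 13.8% to 16.2% in PC. Its part in these values was not tested.

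At 24 h of feeding many members fell. For larvae alone 19 of the 65 fell and 0 rose, where 4.1% of all tested transcripts were called lower and 5.07% higher. That is 29.2% of the members, against 12.1% of the eligible transcripts, and the median log2 fold change was -1.12 against -0.12. CT had 2 libraries here. The count was 9 without replicate 2 of CT and 10 without replicate 3, which leave 1 library taken to vary like the other groups, and 31 with replicate 1 put back. For larvae after simulated eggs 23 of the 65 fell and 0 rose, where 4.72% of all tested transcripts were called lower and 6.08% higher. That is 35.4% of the members, against 13.5% of the eligible transcripts, with a median log2 fold change of -0.82 against -0.12. Without replicate 3 of PT the count was 14. The median change was below that of the eligible transcripts in both pairs.

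The lists of the 2 pairs, which share no library, had 16 members in common, or 84.2% of the 19 and 69.6% of the 23. This overlap was not counted over the eligible transcripts either. Scaffold19325 stood at 0.332 and 0.527 CPM in CT, against 2.78, 3.38 and 2.37 CPM in CC, with a log2 fold change of -2.74 ± 0.37 (SE, adjusted p = 1.29e-05, edgeR). Scaffold10880 stood at 38.7 and 40.5 CPM in CT, against 127, 135 and 152 CPM in CC, at -1.77 ± 0.27 (SE, adjusted p = 5.6e-05, edgeR). In PT it stood at 56, 53.3 and 42.3 CPM, against 144, 142 and 103 CPM in PC, at -1.37 ± 0.23 (SE, adjusted p = 0.000188, edgeR). Scaffold15721 stood at 8.26, 7.73 and 6.05 CPM in PT, against 23, 19.2 and 21.3 CPM in PC, at -1.54 ± 0.21 (SE, adjusted p = 1.96e-05, edgeR). In each of these every fed library lay below every unfed one, and none of the 4 calls was lost in any setting tried.

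Library makeup moved with feeding at this hour too. The 10 most abundant sequences took 26.6% and 51.5% of the reads in the 2 CT libraries and 9.17% to 31.6% in PT, against 11.3% to 23.5% in CC and 8.6% to 16.2% in PC. Its part in the fall of the members was not tested.

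Over both pairs together, in the contrast added after the data were seen, 36 of the 65 fell at 24 h and 3 rose, where 10.8% of all tested transcripts were called lower and 11.4% higher. That is 55.4% of the members called lower, against 25.5% of the eligible transcripts. At 6 h the same contrast called 12 lower and 2 higher, where 1.54% of all tested transcripts were called lower and 4.07% higher. The total of 14 at 6 h was 7 without replicate 2 of CT, 8 without replicate 3 of CC or of PT, 9 without replicate 1 or 3 of PC, and 6 with replicate 1 of CT at 24 h in the fit. All 9 members that fell at 1 h were among the 36 of 24 h, which is 25% of the longer list. Of the 12 that fell at 6 h, 9 were among the 36, or 75% and 25%. The lists of 1 and 6 h shared only 1 member, or 11.1% and 8.33%. None of these overlaps was counted over the eligible transcripts.

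A test of the feeding response itself between hours called 8 members lower and 4 higher at 24 h than at 1 h. Of all tested transcripts, 3.3% were called lower and 3.8% higher. The shares of members, 12.3% lower and 6.15% higher, lay near the 7.94% and 8% of the eligible transcripts. The total of 12 was 20 without replicate 3 of PC at 1 h and 6 without replicate 2 of CT at 24 h. Between 6 h and 1 h the response was higher in 2 members and lower in 0, where 0.213% and 0.0916% of all tested transcripts were called. The 2 are 3.08% of the members, against 0.301% of the eligible transcripts called higher and 0.186% lower.

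**Figure D4:**
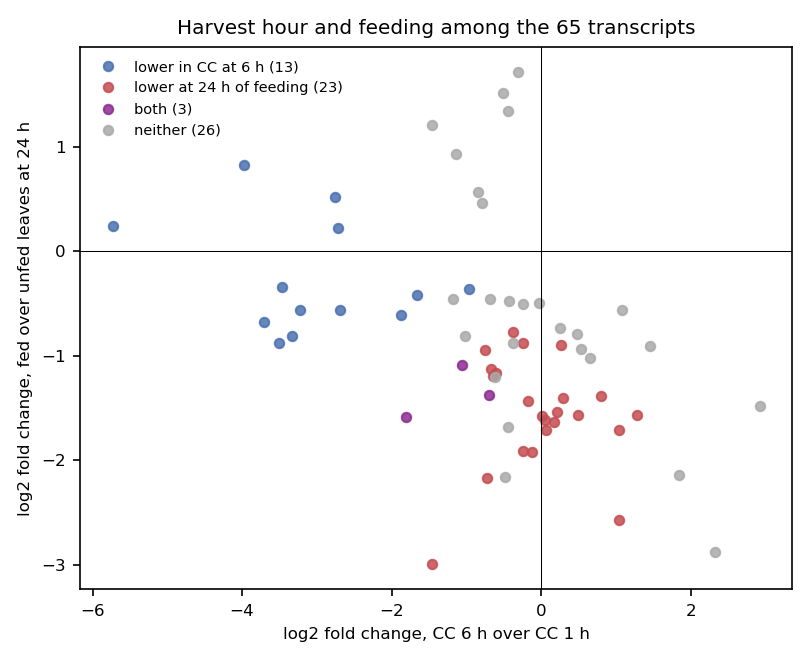
Log2 fold change of each of the 65 transcripts at 6 h over 1 h in CC leaves (x axis) and at 24 h in fed over unfed leaves, both pairs of groups together (y axis); colours give calls at an adjusted p of 0.05, with "lower at 24 h of feeding" meaning called in CT against CC or in PT against PC. The 13 blue points lie left of 0 on the x axis and on both sides of 0 on the y axis, and the 23 red points lie below 0 on the y axis and on both sides of 0 on the x axis.

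The lists of members called at 6 h in CC and at 24 h of feeding overlapped little, but a member without a call may still have changed. Of the 16 that fell at 6 h in CC and the 26 that fell at 24 h of feeding in at least 1 pair, 3 were in both, or 18.8% of the 16 and 11.5% of the 26, and 26 members were in neither. Medians in a comparison that made a list are a description. The 16 hour-dependent members held 6 of the 10 lowest ratios of the rule. Their median log2 fold change was -2.74 for CC at 6 h over 1 h and 3.59 for C at 24 h over 6 h. For feeding at 24 h it was -0.87 in CT against CC and -0.24 in PT against PC, with 13 and 10 of the 16 below 0. The 26 feeding members had medians of -1.55 and -1.40 in these feeding comparisons, but -0.15 for CC at 6 h over 1 h. In the feeding comparisons of 1 h all 26 lay below 0 in both pairs, with medians of -0.69 each. The 26 in neither list had medians of -0.64 in CT against CC and -0.52 in PT against PC at 1 h, with 24 of 26 below 0 in each. At 24 h their medians were -0.79 and -0.54, with 19 of 26 below 0 in each.

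Scaffold197 was in both lists. It stood at 29.3, 27.8 and 23.3 CPM in CC at 6 h, against 54.2, 59.0 and 55.7 CPM in CC at 1 h. At 24 h of feeding it stood at 29.2 and 31.7 CPM in CT, against 74.6, 67.7 and 60.1 CPM in CC, and at 32.4, 34.8 and 36.9 CPM in PT, against 73.5, 53.4 and 88.0 CPM in PC. All libraries of 6 h, fed or unfed and with or without simulated eggs, lay between 18.4 and 29.3 CPM.

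**Figure D5:**
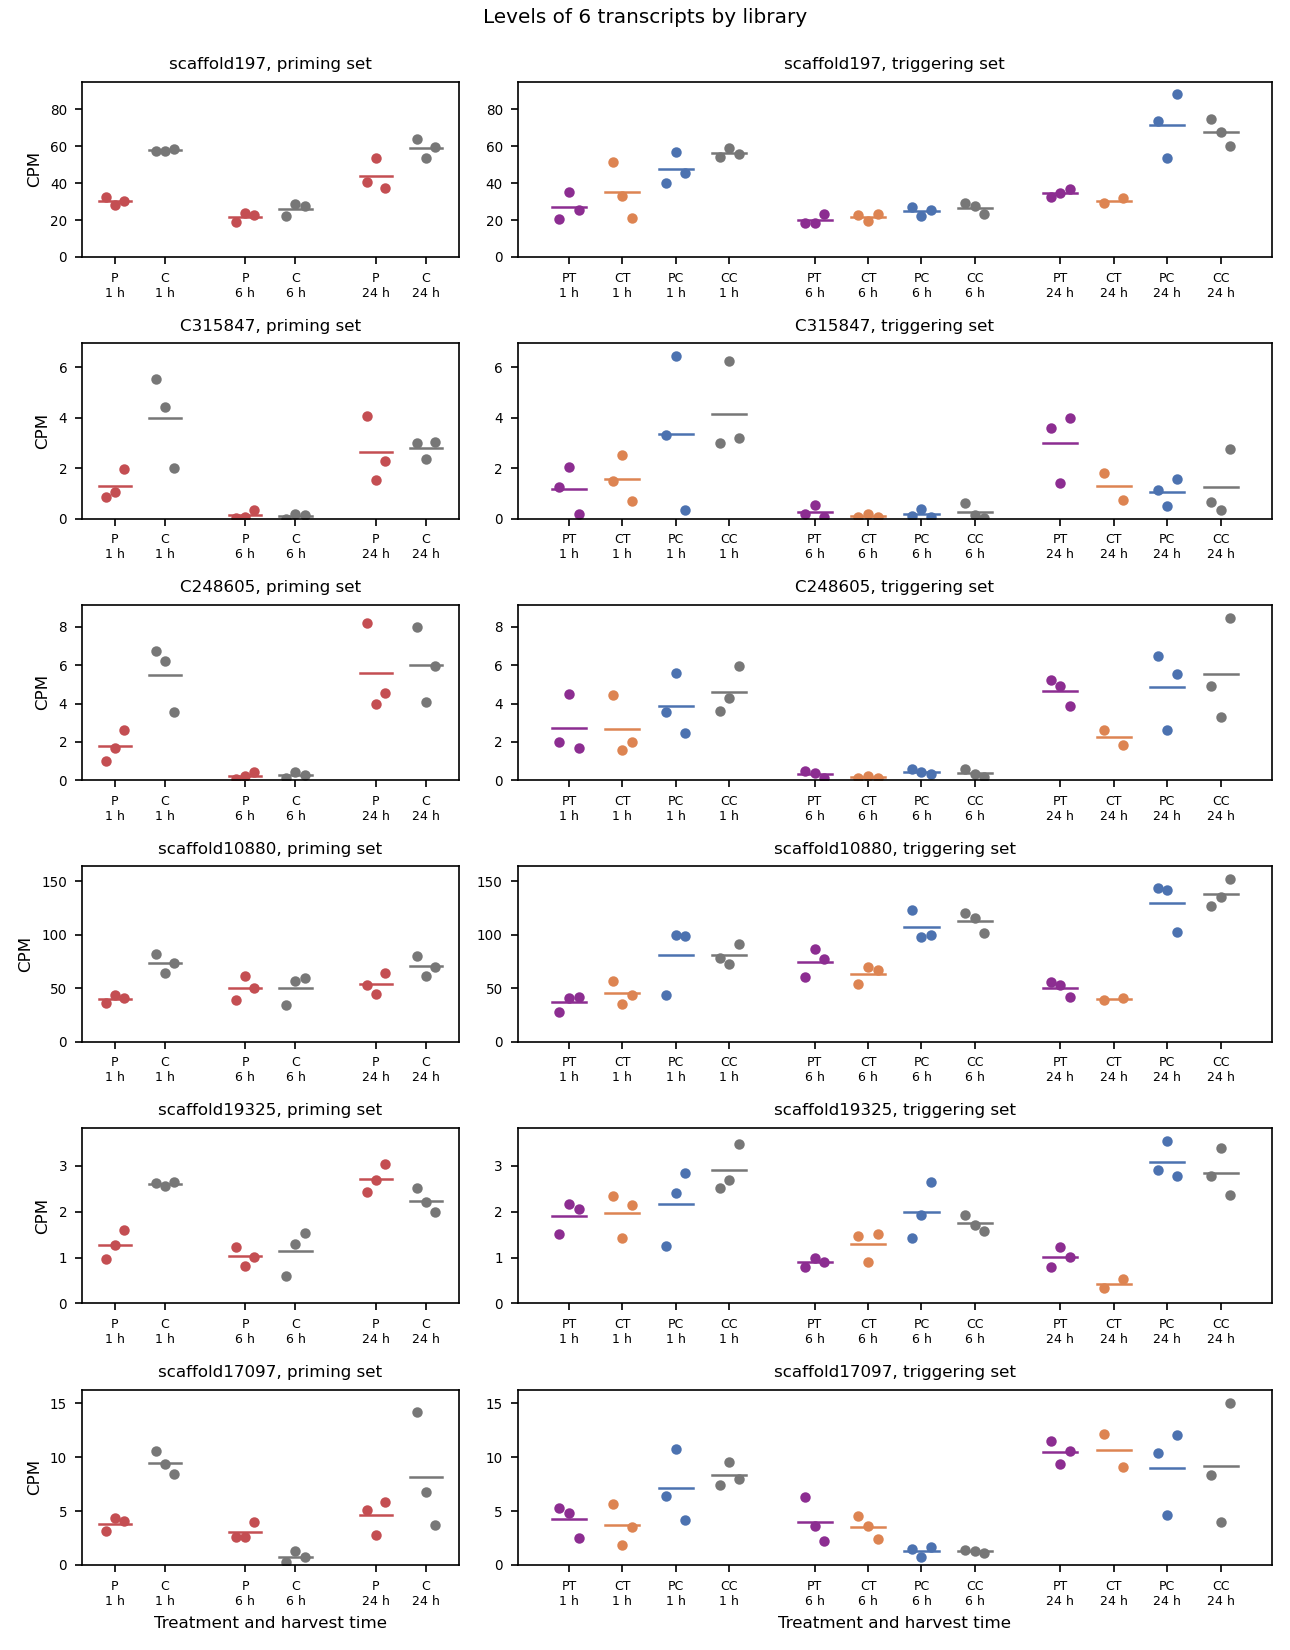
CPM of 6 transcripts in each library by treatment and harvest hour, priming set left and triggering set right; points are libraries, bars are means and each row has its own axis from 0. Scaffold197, C315847 and C248605 are low at 6 h in all treatments, scaffold10880 and scaffold19325 are lower in fed than in unfed leaves at 24 h, and scaffold17097 is higher in fed than in unfed leaves at 6 h but lower by group mean at 1 h.

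A few members went against the others under feeding, all named after their values were seen. Scaffold17097 and C271961 rose at 6 h over both pairs, and C271961 lost this call in 7 of 18 other settings. C271961 stood at 1.58, 1.07 and 0.422 CPM in CT, against 0.587, 0.426 and 0.305 CPM in CC, which overlapped. In PT it stood at 2.28, 1.39 and 0.978 CPM, against 0.668, 0.175 and 0.691 CPM in PC. Scaffold17097 stood at 4.55, 3.64 and 2.43 CPM in CT, against 1.43, 1.26 and 1.07 CPM in CC, and at 6.27, 3.57 and 2.24 CPM in PT, against 1.52, 0.718 and 1.71 CPM in PC. Every fed library of 6 h was above every unfed one, with a log2 fold change of 1.55 ± 0.33 (SE, adjusted p = 0.0041, edgeR). At 1 h its order was turned round, with 5.62, 1.85 and 3.51 CPM in CT, against 7.45, 9.54 and 8 CPM in CC. Scaffold17097 and C271961 are the 2 members whose feeding response was higher at 6 h than at 1 h, by 2.51 ± 0.46 (SE, adjusted p = 0.0103, edgeR) and 2.64 ± 0.52 (SE, adjusted p = 0.0174, edgeR) on the log2 scale. In unfed leaves both were low at 6 h, and in fed leaves they were less so.

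At 24 h of feeding the 3 that rose over both pairs were C456173, scaffold8448 and scaffold23487. C456173 stood at 11 and 7.26 CPM in CT, against 3.42, 2.01 and 4.68 CPM in CC, and at 4.29, 8.71 and 9.13 CPM in PT, against 2.64, 1.86 and 2.94 CPM in PC. Fed libraries were above unfed ones within each pair, with a log2 fold change of 1.52 ± 0.42 (SE, adjusted p = 0.00866, edgeR). Scaffold8448 changed by 1.34 ± 0.36 (SE, adjusted p = 0.00718, edgeR). Scaffold23487 changed by 1.72 ± 0.56 (SE, adjusted p = 0.0269, edgeR), a call lost in 5 of 17 other settings. Its unfed libraries were uneven, at 1.02, 6.15 and 3.09 CPM in CC. The 4 members whose feeding response was higher at 24 h than at 1 h were scaffold8448, C456173, C271961 and C592261. Of 29 other settings, the call was lost in 0, 2, 6 and 17, in that order.

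No lasting mark of the simulated eggs was called among the 65 in unfed leaves a week later. In PC against CC, 0 of the 65 were called by edgeR at 1, 6 or 24 h, as were 0% of all tested transcripts. DESeq2 also called 0 of the 65, where it called 91, 113 and 30 of all tested transcripts higher and 2, 0 and 9 lower. At an unadjusted edgeR p of 0.05 there were 3 members higher and 1 lower at 1 h, 1 and 0 at 6 h, and 1 and 0 at 24 h. Over the 156137 tested transcripts the counts were 3510 and 1783, 3227 and 3031, and 2970 and 3473. The median log2 fold changes were -0.12, 0.01 and -0.07, and 40, 31 and 40 of the 65 lay below 0. Every PC library lay below every CC library in 4, 1 and 3 members at these hours, or 6.15%, 1.54% and 4.62%, against 2.39%, 3.78% and 3.33% of the eligible transcripts. Every PC library lay above every CC library in 1, 3 and 1 members. These were 1.54%, 4.62% and 1.54%, against 2.55%, 6.49% and 4.86% of the eligible transcripts.

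Nor was a difference between fed leaves with and without earlier simulated eggs called among the 65. In PT against CT, 0 of the 65 were called by edgeR at 1, 6 or 24 h, as were 0% of all tested transcripts. DESeq2 also called 0 of the 65, where it called 24, 2 and 3 of all tested transcripts higher and 1, 2 and 1 lower. At an unadjusted edgeR p of 0.05, 1, 5 and 3 members were higher and 1, 1 and 0 lower. Over the 156137 tested transcripts the counts were 3608, 4076 and 3447 higher and 3520, 4560 and 1955 lower. The members' median log2 fold changes were -0.03, 0.20 and 0.12, and without replicate 1 of CT at 1 h the first turned to 0.23. At 24 h every PT library lay above both CT libraries in 20 members, or 30.8%, against 14.6% of the eligible transcripts. Every PT library lay below both in 1 member, or 1.54%, against 8.22%. The difference between the 2 feeding responses, PT over PC against CT over CC, had medians of 0.02, 0.09 and 0.21 and 0 calls at each hour, where 0% of all tested transcripts were called. At an unadjusted edgeR p of 0.05 it was higher in 1, 2 and 2 members and lower in 0 at each hour. Over the 156137 tested transcripts it was higher in 1780, 4313 and 3544 and lower in 2396, 5075 and 2539.

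Beyond their shared choice the 65 moved together only loosely. Over the 47 libraries other than P and C of 1 h, the correlation of log2 levels between 2 members had a median of 0.232 over 2080 pairs, with quartiles of -0.03 and 0.473. Within groups, where treatment and hour are held, the median was 0.101. These values are a description, since the pairs share their libraries. Scaffolds made up 30 of the 65, or 46.2%, against 40.6% of the eligible sequences and 8.76% of the whole table, and 11 of the 16 hour-dependent members were contigs.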

How the data were processed

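Polyadenylated leaf RNA was sequenced in 54 libraries. The authors deposited 1 table of raw read counts on 237477 assembled sequences, all whole numbers. CASAVA and Trimmomatic 0.33 come from the submitters' processing notes. How the assembly was made, and which aligner and counting program were used, with or without strand, is not given in the sources, so reads of overlapping or near-identical sequences cannot be told apart. Columns were matched to samples by the number in the labels, and 0 columns were left unused.

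From these counts, levels were computed as TMM-scaled CPM over 53 libraries. The 18 priming libraries and 35 triggering libraries were each filtered with filterByExpr (minimum count 10, minimum total 15), which left 126737 and 156137 transcripts, all 65 members among them. Each set was fitted with edgeR 4.0.16 in R 4.3.3 (glmQLFit, glmQLFTest) with 1 mean per group. A call needs a p of at most 0.05 after Benjamini-Hochberg adjustment over every transcript of the comparison, at any fold. SE is the log2 fold change over the square root of F. The procedure was tested on simulated data.

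The members, comparisons, alternatives and the rule for names were chosen with earlier results of these data known. For each kind of comparison up to 2 called members that rose and 2 that fell are named, with the smallest p and groups that do not overlap, and for P against C at 1 h the 2 with the lowest ratio. Alternatives were DESeq2 1.42.0, its size factors, no filter, only the compared groups, a replicate block, the odd library put back and leaving out each library. Replicate numbers were taken to pair libraries where all 3 same-numbered pairs deviated together with a correlation above 0.1. The correlations were 0.117 to 0.515 for CT and CC at 1 h and 0.316 to 0.644 for PC and CC at 1 h. They were 0.309 to 0.668 for PT and PC at 1 h and 0.191 to 0.364 for PT and PC at 6 h. The lowest was above 0 but under 0.1 for P and C at 1 h (0.067 to 0.469) and 24 h (0.096 to 0.248). The same held for PT and PC at 24 h (0.052 to 0.308) and PT and CT at 6 h (0.088 to 0.271).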

Additional observations from a re-analysis of the deposited data

Results flagged for a closer look

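The feeding response of the members was compared between hours by a test of the difference itself (edgeR's quasi-likelihood test, adjusted p at most 0.05). The test set the mean response of both pairs of groups at 1 hour against that at another. Between 24 h and 1 h the response differed in 12 of the 65, with 8 lower and 4 higher at 24 h. Between 6 h and 1 h it differed in 2, both higher at 6 h. There 0.213% of all tested transcripts were called higher and 0.0916% lower. Among the eligible transcripts 0.301% were called higher and 0.186% lower, against 3.08% and 0% of the members. The share of all tested transcripts called at 24 against 1 h was 3.3% lower and 3.8% higher. Among the eligible transcripts it was 7.94% lower and 8% higher, against 12.3% and 6.15% of the members. The members thus lay near the eligible transcripts at 24 against 1 h, and no trait of the members is read from that comparison.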

How the results depend on the processing

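The median log2 fold change of the members kept its sign in every setting in 21 of 26 comparisons, among them all comparisons of fed with unfed leaves and P against C at 1 and 24 h. It changed sign in 13 of 375 repeats, in P against C at 6 h, PC against CC at 6 and 24 h, PT against CT at 1 h and the difference of feeding responses at 1 h, all with medians near 0. For PT against CT at 1 h it ranged from -0.18 to 0.23 with 1 library left out, the highest without replicate 1 of CT, and the cause was not tested. Counts of calls moved more, and those for P against C at 1 h, which chose the members, are a description. Calls over all tested transcripts moved between settings as well, and DESeq2 called more of them than edgeR in each comparison listed next. DESeq2 called 13 members for P against C at 1 h, 1 at 6 h, 2 for CT against CC at 1 h, 6 at 6 h, 6 for PT against PC at 1 h, 5 at 6 h, 5 for CC at 24 h over 1 h and 15 for both pairs at 1 h. With only the compared groups fitted, the counts were 0 for P against C at 1 h, 4 for CT against CC at 6 h, 37 at 24 h, 0 for PT against PC at 1 h, 4 at 6 h, 38 at 24 h, 3 for CC at 24 h over 1 h and 0 for both pairs at 1 h. Without a filter on low counts they were 1 for CT against CC at 6 h, 0 for PT against PC at 1 h and 1 at 6 h. With replicate 1 of CT at 24 h put back, they were 1 for CT against CC at 6 h, 31 at 24 h, 0 for PT against PC at 1 h, 0 at 6 h, 4 for both pairs at 1 h and 6 at 6 h. With the replicate number as a block they were 2 for P against C at 1 h, 0 for PT against PC at 1 h and 2 for CC at 24 h over 1 h, and the block moved no other total of both directions by over 1.5 times. Members called higher were 1 in place of 3 for CC at 6 h over 1 h, 1 in place of 2 for both pairs at 6 h and 3 in place of 0 for CT against CC at 24 h. Where the numbers do not pair libraries, the block is only a shared number.

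Leaving out 1 library at a time gave 0 to 0 calls for P against C at 1 h, 0 to 5 at 24 h, 0 to 4 for CT against CC at 1 h, 0 to 2 at 6 h and 9 to 18 at 24 h. The ranges were 0 to 6 for PT against PC at 1 h, 0 to 1 at 6 h and 14 to 19 at 24 h. They were 6 to 20 for the feeding response of 24 against 1 h, 12 to 18 for CC at 6 h over 1 h, 5 to 21 for both pairs at 1 h and 7 to 14 at 6 h. With 0.1 CPM added in place of 0.5, the rule took 93 transcripts, all 65 among them, and with 2 CPM it took 29, all members. With group means it took 78, of which 47 were members, and with scaling over the priming libraries alone 67, of which 60 were members. Many members are low, and the lowest count of a member in a P library of 1 h was 8.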
